A study of Homo sapiens with 12 samples.

Results

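The genes described here carry the symbols of proteins of the human cytosolic ribosome. They were chosen by symbol: RPL or RPS followed by a number (with suffixes such as A, X or L), together with RPLP0, RPLP1, RPLP2 and RPSA. Pseudogenes and the RPS6K kinases were left out. Of 63152 gene identifiers, 85 met this rule, 53 of the large subunit and 32 of the small subunit. Of the 85 genes, 8 are paralogues of a partner with higher counts in these libraries (RPL3L, RPL7L1, RPL10L, RPL22L1, RPL26L1, RPL36AL, RPL39L and RPS27L). Genes were assigned to a subunit by symbol, and whether each paralogue's product is part of the mature ribosome was not examined.

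Transcripts were counted by QuantSeq, a method that sequences the 3′ end of polyadenylated RNA, in OPM2 cells. OPM2 is an established line grown from human multiple myeloma, a cancer of plasma cells. Cells were exposed for 2 h to DMSO (the vehicle), to JQ1 at 250 nM, to BKM120 at 1 µM or to 18DS at 250 nM. JQ1 is an inhibitor of BET bromodomain proteins, BKM120 (buparlisib) is an inhibitor of PI3-kinase, and the submitters describe 18DS as a chimeric small molecule that inhibits both. Each of the 4 groups held 3 libraries, which the labels call biological triplicates, and all 12 came from the same cell line.

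A ribosome is built from ribosomal RNA and a set of proteins that are needed in nearly equal amounts, most of them encoded by a single expressed gene with many processed pseudogenes elsewhere in the genome. Transcripts of these genes typically begin with a C followed by a run of pyrimidines, the 5′ terminal oligopyrimidine (TOP) motif. Through this motif mTORC1, a kinase complex downstream of PI3-kinase, controls their translation and, with the RNA-binding protein LARP1, their stability. Plasma cells, which secrete antibody, carry a large load of protein synthesis.

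Windows of 30 bases around the annotated transcript start, 10 before it and 20 from it onward, are shown for genes whose values the results turn on. They were read from RefSeq promoters of build GRCh38.p14, matched by symbol. Capitals mark the run of pyrimidines where the first transcribed base is a C followed by at least 4 pyrimidines on the transcribed strand. Where a gene had several annotated starts, the start with the longest run is shown.
RPS9: gcttccgcgcCTCTTTCTCagtgaccgggt
RPL10: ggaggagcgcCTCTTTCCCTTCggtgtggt
RPS3: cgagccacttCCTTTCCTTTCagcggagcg
RPL29: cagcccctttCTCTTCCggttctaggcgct
RPS23: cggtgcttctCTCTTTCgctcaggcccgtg
RPS27: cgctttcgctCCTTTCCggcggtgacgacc
RPS27L: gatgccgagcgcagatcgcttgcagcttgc
RPL7L1: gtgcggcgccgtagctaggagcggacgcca
RPL36AL: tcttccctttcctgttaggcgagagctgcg

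The windows lie at chr19:54200848-54200877 (RPS9, plus strand), chrX:154398367-154398396 (RPL10, plus strand), chr11:75399508-75399537 (RPS3, plus strand), chr3:51995876-51995905 (RPL29, minus strand) and chr5:82278335-82278364 (RPS23, minus strand). Those of the paralogue pairs lie at chr1:153990752-153990781 (RPS27, plus strand), chr15:63157458-63157487 (RPS27L, minus strand), chr6:42879606-42879635 (RPL7L1, plus strand) and chr14:49620607-49620636 (RPL36AL, minus strand). The table held 68 of the 85 genes, with 84 annotated starts. Of these starts 47 (56.0%) carried the run, against 1429 of 35116 starts of all genes (4.07%). Among genes other than the paralogues 46 of 62 had at least 1 such start, and among the paralogues 1 of 6 did (RPL22L1). These are counts of genes, while the share of 4.07% is of starts. The runs were 5 to 19 bases long, with a median of 8. The starts shown for RPS27L, RPL7L1 and RPL36AL do not hold it, while that of RPS27 does.

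Total counts per library were 5501895 to 7692013. Plasma cell and myeloma markers, all 11 of which passed the expression filter, summed to 5460 to 6600 CPM (counts scaled to a common library size) in each library. Markers of B cells summed to at most 0.539 CPM with MS4A1 at 0, those of T and NK cells to at most 0.46 CPM with CD3D and NKG7 at 0, and those of myeloid cells to at most 2.86 CPM. HEXIM1, a transcript induced by BET inhibitors, rose with 18DS (log2 fold change 1.95, SE 0.11) and with JQ1 (1.66, SE 0.11). IRS2, a transcript restrained by PI3-kinase signalling, rose with BKM120 (1.53, SE 0.17) and with 18DS (1.52, SE 0.17). The 18DS replicate 2 library differed most from its replicates, with chi-square values per degree of freedom of 8.88 and 6.08 against replicates 1 and 3. Values were 1.92 to 5.46 for the other replicate pairs.

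Ribosomal protein genes held 12564390 of 75954679 counts. Their share was 15.75%, 16.48% and 16.61% in the DMSO libraries, 16.36%, 16.35% and 16.35% in JQ1, 15.98%, 16.64% and 16.37% in BKM120 and 16.98%, 17.23% and 17.35% in 18DS. The 18DS libraries were above the 9 others, and the JQ1 and BKM120 libraries lay within or close to the DMSO range. Group means were 16.28% ± 0.464 (DMSO), 16.35% ± 0.00577 (JQ1), 16.33% ± 0.332 (BKM120) and 17.19% ± 0.189 (18DS; SD, n = 3 each). The 95% Wilson interval of a library's share was at most ±0.0309 percentage points, which covers counting error only. Large subunit genes held 7.61% ± 0.188 of counts in DMSO and 8.09% ± 0.138 in 18DS, and small subunit genes 8.68% ± 0.285 and 9.10% ± 0.0962. A share of counts is relative. In bulk RNA a larger amount per cell, a larger part of cells with high levels and less of other RNA cannot be told apart.

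Taken gene by gene on TMM-scaled library sizes, the median log2 difference from the DMSO mean over the 77 tested genes outside the paralogues was -0.08, 0.01 and 0.05 in the DMSO libraries. It was 0.04, 0.03 and 0.02 in JQ1, 0.06, 0.09 and 0.10 in BKM120, and 0.13, 0.24 and 0.14 in 18DS. DMSO replicate 1 was the lowest library and 18DS replicate 2 the highest. The 3 BKM120 libraries were above the 3 DMSO libraries in this median, although their summed shares overlapped.

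**Figure D1:**
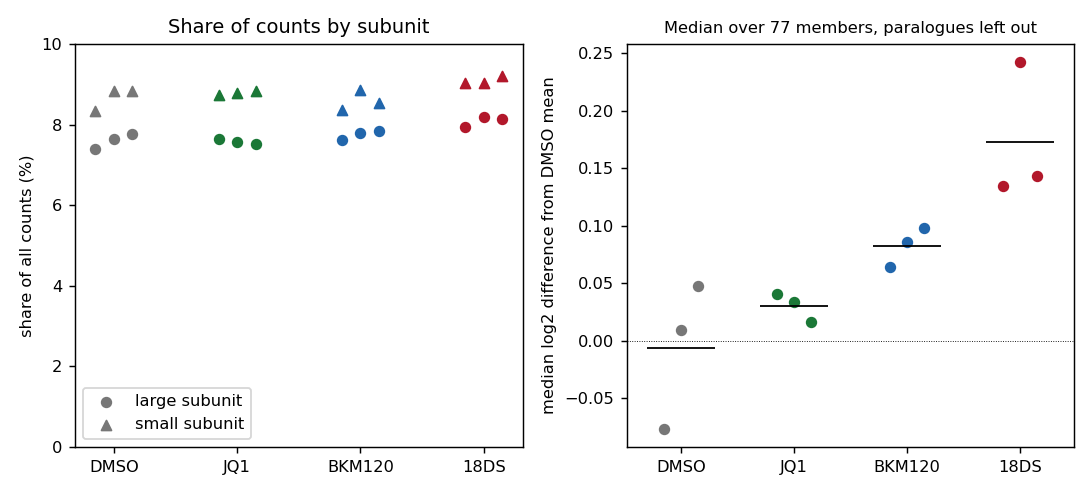
Share of all counts (%) in large subunit genes (circles) and small subunit genes (triangles) per library, left, and median log2 difference from the DMSO mean over 77 genes, right, with a line at each group mean. In each group points run from replicate 1 to replicate 3; the 18DS libraries (0.13 to 0.24) lie above the others in the right panel and DMSO replicate 1 (-0.08) lies lowest.

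With 18DS, many ribosomal protein transcripts of both subunits were modestly higher than with DMSO. Of 83 tested genes 38 rose, by 13.8% (RPSA) to 44.2% (RPS3), and 1 fell (edgeR quasi-likelihood test, Benjamini-Hochberg adjusted p under 0.05 over 13180 genes). Among all tested genes 9.95% rose and 11.0% fell, 21.0% in all. The median log2 fold change was 0.18 over the 83 genes and 0.00 over all genes. Of 32 small subunit genes 19 rose and 0 fell (median 0.23), and of 51 large subunit genes 19 rose and 1 fell (median 0.15). The difference between subunits was not tested. In 54 genes every 18DS library was above every DMSO library and in 6 genes every one was below, against 16.9% and 18.4% of all tested genes. Without both DMSO replicate 1 and 18DS replicate 2, an alternative chosen after the data were seen, 15 genes rose and 0 fell, with a median of 0.12. In that fit 686 of all 13392 tested genes rose and 894 fell, against 1312 and 1456 with all libraries. Scaling by library totals alone gave 21 higher and 3 lower (898 and 2025 over all tested genes).

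JQ1 against DMSO gave 0 genes higher and 0 lower among the 83 (edgeR), where 2.63% and 3.45% of all tested genes were called, 6.08% in all. At an unadjusted p under 0.05 there were 4 of the 83 genes, 3 of them higher, against 2360 of all 13180 tested genes, 1082 of them higher. DESeq2 and limma-voom also called 0. The median log2 fold change was 0.03, and the largest rise was that of RPS3 (0.19, 95% confidence interval -0.06 to 0.44). RPS3 was called only when the fit held just the DMSO and JQ1 libraries (edgeR adjusted p = 0.0429).

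BKM120 against DMSO, at the higher dose of 1 µM, gave 14 of the 83 genes higher and 1 lower, against 4.07% and 4.14% of all tested genes (8.21% in all). Because its dose differs from that of 18DS, values of these compounds stand side by side without a test between them. The median log2 fold change was 0.08, with 9 of 32 small subunit genes higher (median 0.12) and 5 of 51 large subunit genes higher and 1 lower (median 0.06). In 32 genes the BKM120 libraries were all above the DMSO libraries and in 4 all below, against 13.7% and 14.5% of all tested genes. The number higher moved with single libraries. Leaving out DMSO replicate 1 or BKM120 replicate 1 gave 5, leaving out DMSO replicate 2 gave 8, and leaving out BKM120 replicate 3 gave 4. Calls fell over all tested genes too, from 536 higher to 246, 267, 356 and 223 in these fits, in that order. The number lower was 0 without BKM120 replicate 1, 8 without BKM120 replicate 2 and 5 without 18DS replicate 2. Over all tested genes the number lower was 285, 746 and 834 in these fits, against 546 with all libraries. Scaling by library totals alone gave 8 higher and 4 lower (439 and 815 over all tested genes).

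18DS and JQ1 were given at the same dose and time, and this was the only pair of compounds compared directly. Of the 83 genes 20 were higher and 0 lower with 18DS, against 2.37% and 1.79% of all tested genes (4.17% in all). The median log2 difference was 0.15 (all genes -0.01), with 11 of 32 small subunit genes higher (median 0.18) and 9 of 51 large subunit genes (median 0.12). The libraries did not overlap in 50 genes with 18DS above JQ1 and in 5 with 18DS below, against 11.8% and 12.2% of all tested genes. The number higher was 7 without JQ1 replicate 2, 8 without JQ1 replicate 3, 11 without 18DS replicate 2, 10 without 18DS replicate 3, and 13 when scaled by library totals alone. Over all tested genes it was 67, 72, 130, 103 and 208 in these fits, against 313 without these changes. The remaining 63 genes did not pass the test, which does not show that the compounds act alike on them; the median standard error of 0.07 sets what could be seen.

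**Figure D2:**
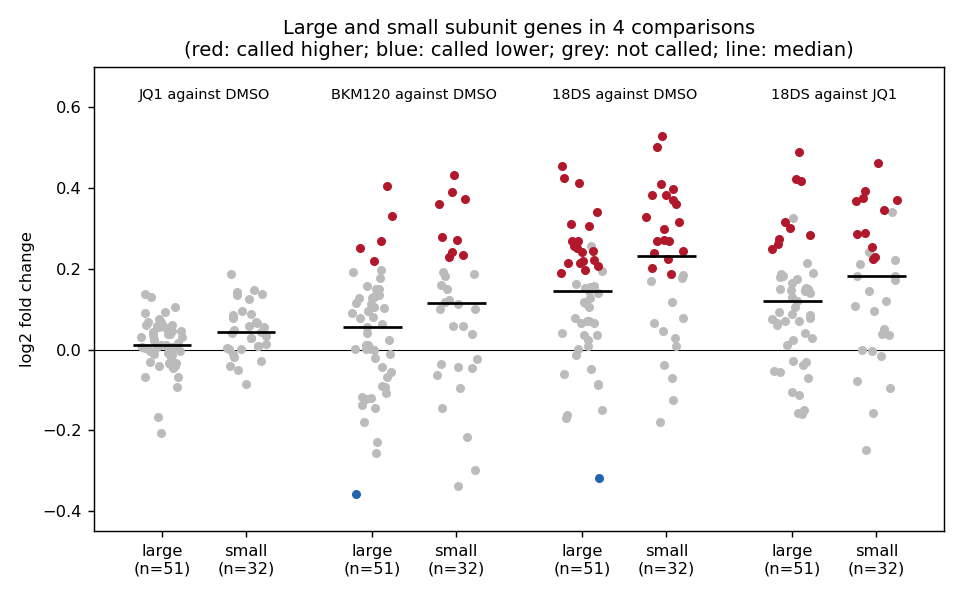
Log2 fold change of each tested large (n = 51) and small (n = 32) subunit gene in 4 comparisons, with a line at the median. Red points rose, blue points fell and grey points did not pass an adjusted p of 0.05; red points number 0 in JQ1, 14 in BKM120 and 38 in 18DS against DMSO, and 20 in 18DS against JQ1.

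Of the small subunit, RPS9 (ENSG00000170889), a protein linked to the accuracy of decoding, was at 650.4, 829.8 and 854 CPM in DMSO and at 861, 837 and 848 CPM in JQ1. It was at 1029, 938 and 1089.9 CPM in BKM120 and at 1001, 1182 and 1118 CPM in 18DS. The BKM120 and 18DS libraries were all above those of DMSO and JQ1. The log2 fold change against DMSO was 0.50 with 18DS (SE 0.08, edgeR adjusted p = 5.82e-05), 0.39 with BKM120 (SE 0.08, edgeR adjusted p = 0.00304) and 0.13 with JQ1 (SE 0.08, edgeR adjusted p = 0.472). Against JQ1, 18DS was higher by 0.37 (95% confidence interval 0.20 to 0.55), a call that was lost without JQ1 replicate 2 (edgeR adjusted p = 0.064), JQ1 replicate 3 (0.0532) or 18DS replicate 3 (0.0562). With a GC offset for each library that difference was 0.23 (edgeR adjusted p = 0.0585). RPS9 had 0 counts in its pseudogene identifier.

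RPS3 (ENSG00000149273), at the entry of the mRNA channel, showed the largest change of the group with 18DS. It was at 1746, 2032 and 1970.2 CPM in DMSO, 2219, 2189.8 and 2137 in JQ1, 2535, 2216 and 3008 in BKM120 and 2379.7, 3258 and 2651 in 18DS. DMSO was lowest, the BKM120 libraries spanned from near the JQ1 values upward, and the 18DS libraries were above both DMSO and JQ1. The log2 fold change was 0.53 with 18DS (SE 0.12, edgeR adjusted p = 0.00522) and 0.43 with BKM120 (SE 0.12, edgeR adjusted p = 0.0361). The BKM120 call was lost without DMSO replicate 1 (edgeR adjusted p = 0.198), DMSO replicate 3 (0.0815), BKM120 replicate 1 (0.091) or BKM120 replicate 3 (0.0962), and when scaled by library totals alone (0.0578). The difference between 18DS and JQ1, 0.34, had an edgeR adjusted p of 0.121, and it passed the test without 18DS replicate 1 (0.0162), BKM120 replicate 2 (0.042) or BKM120 replicate 3 (0.0282), with no filter, with only those groups and with DESeq2.

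RPS18 (ENSG00000231500), a protein of the small subunit head, was at 1605, 1918 and 2036 CPM in DMSO, 1869, 1747 and 1902 in JQ1, 2156, 2147 and 2271 in BKM120 and 2205, 2628.5 and 2409 in 18DS. The DMSO and JQ1 libraries overlapped, and the BKM120 and 18DS libraries were above both. It rose by 0.38 on the log2 scale with 18DS (SE 0.08, edgeR adjusted p = 0.000369) and was higher by 0.39 with 18DS than with JQ1 (95% confidence interval 0.24 to 0.55). With BKM120 it rose by 0.24 (SE 0.08, edgeR adjusted p = 0.0429), a call lost under 14 of 27 alternatives. Among them were fits without DMSO replicate 1 (edgeR adjusted p = 0.277), DMSO replicate 2 (0.0726), BKM120 replicate 1 (0.106), BKM120 replicate 3 (0.179), 18DS replicate 3 (0.0596), or JQ1 replicate 1, 2 or 3 (0.058, 0.0552 and 0.0564). RPS14 and RPS2 of the same subunit also rose with 18DS, by 0.37 and 0.38, and with BKM120, by 0.23 and 0.27. Their BKM120 calls were lost without DMSO replicate 1 (edgeR adjusted p = 0.182 and 0.106), DMSO replicate 2 (0.0608 and 0.0526), BKM120 replicate 1 (0.108 and 0.0537) or BKM120 replicate 3 (0.144 and 0.194), and that of RPS14 also with library totals alone (0.0581) or a GC offset (0.0509).

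Of the large subunit, RPL10 (ENSG00000147403), a protein that joins the subunit late and is needed for its release into translation, was at 899.6, 969 and 1085 CPM in DMSO and at 1012, 956 and 998 CPM in JQ1. It was at 1311, 1148 and 1254 CPM in BKM120 and at 1223, 1396 and 1342 CPM in 18DS. All BKM120 and 18DS libraries were above all DMSO and JQ1 libraries. The log2 fold change was 0.42 with 18DS (SE 0.07, edgeR adjusted p = 5.82e-05), 0.33 with BKM120 (SE 0.07, edgeR adjusted p = 0.00334) and 0.01 with JQ1 (SE 0.07, edgeR adjusted p = 0.973). Against JQ1, 18DS was higher by 0.42 (95% confidence interval 0.27 to 0.57). Pseudogene identifiers named after RPL10 held 121% as many counts as RPL10 itself.

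RPL29 (ENSG00000162244), a large subunit protein found in eukaryotes, was at 256, 298 and 325 CPM in DMSO, 302, 267 and 287 in JQ1, 416, 332 and 415 in BKM120 and 378, 425 and 401 in 18DS. DMSO and JQ1 overlapped, and all BKM120 and 18DS libraries were above them. It rose by 0.45 with 18DS (SE 0.09, edgeR adjusted p = 0.000313) and by 0.40 with BKM120 (SE 0.09), and it showed the largest difference of 18DS from JQ1 (0.49, 95% confidence interval 0.31 to 0.67). RPL27A (ENSG00000166441), a protein of the large subunit, was at 7389, 8642 and 9182 CPM in DMSO, 8753, 7962 and 8305 in JQ1, 9774, 9680.2 and 10906 in BKM120 and 10064, 11672 and 11813 in 18DS. Its BKM120 and 18DS libraries were likewise above all others. It rose by 0.41 with 18DS (SE 0.08) and by 0.27 with BKM120 (SE 0.08). The BKM120 call was lost without DMSO replicate 1 (edgeR adjusted p = 0.157), BKM120 replicate 1 (0.0552) or BKM120 replicate 3 (0.173), and without both DMSO replicate 1 and 18DS replicate 2 (0.0723).

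The calls of RPS9, RPS3, RPL10, RPL29, RPL27A and RPS18 in 18DS against DMSO were kept under all 27 alternatives, including each library left out in turn. The weakest value among them was an edgeR adjusted p of 0.0473 for RPS3.

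**Figure D3:**
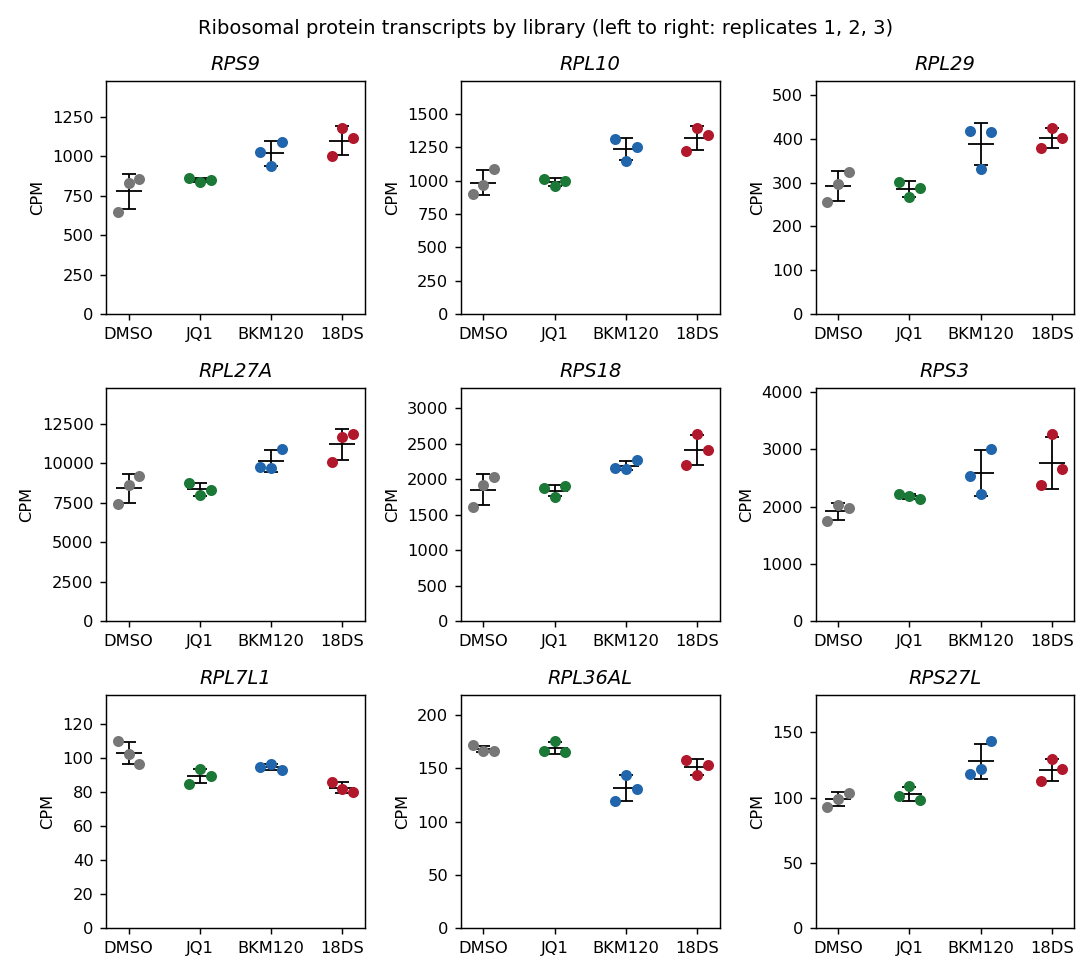
CPM of 9 genes in each library, with points from left to right for replicates 1, 2 and 3, a bar at the group mean and whiskers of 1 SD (n = 3). RPS9, RPL10, RPL29, RPL27A, RPS18 and RPS3 are higher in 18DS than in DMSO, RPL7L1 is lower in 18DS, and RPL36AL is lowest and RPS27L highest in BKM120.

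By role, 2 of 3 stalk genes, which recruit elongation factors, rose with 18DS. RPLP1 rose by 0.31 (SE 0.06) and RPLP0 by 0.22 (SE 0.06), and RPLP2 was at 0.13 (SE 0.06, edgeR adjusted p = 0.146). Differences among these genes were not tested. Scaling moved both sides of the threshold, since the RPLP0 call was lost with library totals alone (0.15, edgeR adjusted p = 0.0752) and RPLP2 passed with upper-quartile factors (0.18, edgeR adjusted p = 0.0445). The RPLP0 call was also lost without both DMSO replicate 1 and 18DS replicate 2 (0.0539). In RPLP0 the DMSO libraries were at 3995, 4410 and 4507 CPM and the 18DS libraries at 5053, 5009.6 and 4974.5 CPM, with no overlap. The genes of the 5S particle, RPL5 and RPL11, which also bind MDM2, did not pass in any comparison. For RPL5 the 18DS value was 0.08 (95% confidence interval -0.06 to 0.21) and for RPL11 0.04 (-0.10 to 0.17). RPS6, the substrate of S6 kinase, was at -0.04 with 18DS (95% confidence interval -0.17 to 0.09) and at -0.10 with BKM120 (-0.23 to 0.04). The X-linked RPS4X rose with 18DS (0.27, SE 0.07). RPSA was close to the threshold (0.19, SE 0.06, edgeR adjusted p = 0.0364), and its call was lost under 11 of 27 alternatives. These included DMSO replicate 1 (edgeR adjusted p = 0.0828), DMSO replicate 2 (0.074), DMSO replicate 3 (0.0563), 18DS replicate 2 (0.103) or 18DS replicate 3 (0.0502) left out, library totals alone (0.11, edgeR adjusted p = 0.198) and a GC offset (0.0652).

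A few genes had lower values with BKM120 and passed the test only under some alternatives. RPS12 was at 9755, 9579 and 9539 CPM in DMSO, 9785, 10236 and 10636 in JQ1, 7767, 9558.5 and 7511 in BKM120 and 10087, 7735 and 9693 in 18DS. RPS23, at the decoding centre, was at 5033, 4757 and 4747 CPM in DMSO, 4866, 5129 and 5239.9 in JQ1, 3490.3, 4621 and 3387 in BKM120 and 4713, 3539 and 4574 in 18DS. RPS27A, made as a fusion to ubiquitin, was at 8766.5, 8541.5 and 8584.5 CPM in DMSO, 8203, 8309 and 8876 in JQ1, 6468, 8303 and 6292 in BKM120 and 8490.4, 6736 and 8529 in 18DS. In each of these genes BKM120 replicates 1 and 3 and 18DS replicate 2 were the lowest libraries. The same 3 libraries had the highest mitochondrial share of counts (7.41%, 7.65% and 7.60%, against 6.57% to 7.06% in the 9 others), and the part of this in the result was not tested. The log2 fold changes with BKM120 were -0.22, -0.34 and -0.30 (edgeR adjusted p = 0.138, 0.102 and 0.064). They passed under 3, 7 and 9 of 27 alternatives. All passed without BKM120 replicate 2 (log2 fold changes -0.33, -0.50 and -0.44, edgeR adjusted p = 0.00624, 0.000233 and 0.000365) and without 18DS replicate 2 (0.0253, 0.0103 and 0.00539). RPS23 and RPS27A also passed with DESeq2 (0.029 and 0.0401) and limma-voom (0.0212 and 0.024).

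Levels of different genes are given in CPM without division by length, since a 3′ method counts about 1 fragment per transcript. In DMSO the highest as counted were RPS28 (10559 CPM), RPS12 (9625 CPM) and RPS27A (8631 CPM). This order depends on how reads shared with pseudogenes were counted. Pseudogene identifiers held 50.3% as many counts as RPS28 itself, 287% as many as RPS27 (2141 CPM) and 921% as many as RPL21 (1380 CPM). Outside the paralogues the lowest was RPL29 (293 CPM). The paralogues lay below this, from RPL36AL (168 CPM) and RPL7L1 (103 CPM) down to RPL26L1 (27.1 CPM) and RPL39L (13.2 CPM).

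RPL7L1, a relative of RPL7 placed with the large subunit by its symbol, was the gene that fell with 18DS. It was at 109.97, 102 and 96.8 CPM in DMSO, 85.04, 93.6 and 89.7 in JQ1, 94.5, 96.7 and 93.3 in BKM120 and 86.1, 82.1 and 79.8 in 18DS. Each treated library was below each DMSO library. It fell by 0.32 on the log2 scale with 18DS (SE 0.08, edgeR adjusted p = 0.00506), a call lost under 3 of 27 alternatives. These were the fit without DMSO replicate 1 (edgeR adjusted p = 0.0547), the fit without both DMSO replicate 1 and 18DS replicate 2 (0.0665) and the GC offset (-0.21, edgeR adjusted p = 0.0543). The values with JQ1 (-0.21) and BKM120 (-0.12) did not pass. RPL7L1 made up 9.82% ± 0.523 of the counts of RPL7L1 and RPL7 in DMSO, 8.33% ± 0.434 in JQ1, 9.12% ± 0.257 in BKM120 and 7.69% ± 0.231 in 18DS (SD, n = 3).

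RPL36AL, which encodes nearly the same protein as RPL36A, was at 172, 166 and 166 CPM in DMSO, 166, 176 and 165 in JQ1, 119, 144 and 131 in BKM120 and 158, 144 and 153 in 18DS. All BKM120 libraries and all 18DS libraries were below DMSO. It fell by 0.36 with BKM120 (SE 0.08, edgeR adjusted p = 0.0033), not passing without BKM120 replicate 1 (0.0536), and was at -0.15 with 18DS (edgeR adjusted p = 0.178; with library totals alone -0.22, 0.0359). RPL36AL was 8.16% ± 0.104 of the pair's counts in DMSO, 7.73% ± 0.311 in JQ1, 6.38% ± 0.35 in BKM120 and 6.88% ± 0.28 in 18DS. RPL36A also shares sequence with a readthrough gene, RPL36A-HNRNPH2 (97334 counts), so its own level is uncertain.

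RPS27L, the relative of RPS27 induced by p53, was at 93.1, 98.9 and 104 CPM in DMSO, 101, 109 and 98.1 in JQ1, 118, 122 and 143 in BKM120 and 113, 129.5 and 122 in 18DS. The BKM120 and 18DS libraries were above the DMSO and JQ1 libraries. It rose by 0.37 with BKM120 (SE 0.09, edgeR adjusted p = 0.00524) and by 0.30 with 18DS (SE 0.09, edgeR adjusted p = 0.0118). The BKM120 call was lost without BKM120 replicate 3 (0.0882) and the 18DS call without DMSO replicate 1 (0.0513), without both it and 18DS replicate 2 (0.149), or with library totals alone (0.0545). RPS27 rose with 18DS (0.40) and with BKM120 (0.28), the latter call being lost without DMSO replicate 1 (edgeR adjusted p = 0.133), BKM120 replicate 1 (0.0601) or BKM120 replicate 3 (0.118). RPS27L was 4.41% ± 0.186 of the pair's counts in DMSO, 4.68% ± 0.314 in BKM120 and 4.15% ± 0.286 in 18DS.

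RPL22L1, RPL26L1 and RPL39L did not pass in any comparison, with log2 fold changes of -0.16, 0.19 and 0.26 for 18DS against DMSO and wide errors (SE 0.10, 0.12 and 0.18). With BKM120 RPL22L1 was at -0.26, and it passed only without BKM120 replicate 2 (-0.36, edgeR adjusted p = 0.0342). RPL3L, a form of muscle, had 24 counts in the 12 libraries and RPL10L, a form of testis, had 2, both in BKM120; neither passed the expression filter.

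The order of the genes was alike in a pair of comparisons that share no library. The log2 difference of 18DS from JQ1 and that of BKM120 from DMSO had Pearson's r of 0.901 and Spearman's rho of 0.898 over the 83 genes (0.344 and 0.396 over 13180 genes). Genes are not independent replicates, and all libraries share 1 scaling and method. Over all tested genes 313 were higher in the first comparison and 536 in the second, with 126 in both (40.3% and 23.5% of the lists). Of the 20 ribosomal protein genes higher in the first and the 14 higher in the second, 11 were in both, 55% and 78.6% of the respective lists. RPL10, RPL18, RPL27A, RPL29, RPS2, RPS9, RPS14, RPS18 and RPS27 were among them.

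**Figure D4:**
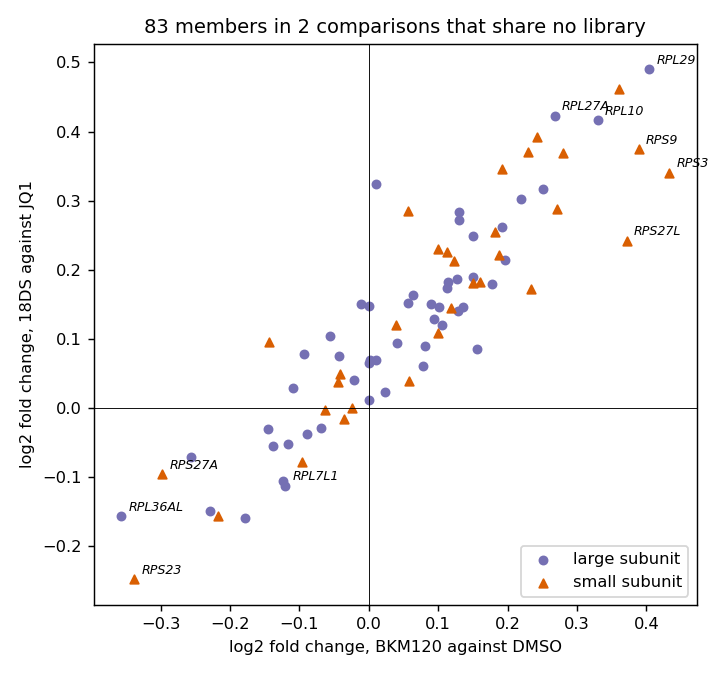
Log2 fold change of BKM120 against DMSO (x axis) and of 18DS against JQ1 (y axis) for 83 genes, circles for the large and triangles for the small subunit. RPL29, RPL10 and RPS9 lie at the upper right and RPS23 and RPL36AL at the lower left (Pearson's r 0.901).

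A like order of genes also appeared among replicates of a single group. The log2 difference of DMSO replicate 1 from DMSO replicates 2 and 3 had r of -0.739 and rho of -0.752 with the difference of 18DS from JQ1 over the 83 genes (-0.217 and -0.238 over all tested genes), although these share no library. The difference of 18DS replicate 2 from 18DS replicates 1 and 3 had r of 0.672 and rho of 0.793 with BKM120 against DMSO (0.168 and 0.215 over all). DMSO replicate 1 was the lowest DMSO library in 54 of the 83 genes and in 36 of the 38 that rose with 18DS, and 18DS replicate 2 was the highest 18DS library in 33 of those 38. The 38 were called from these same libraries, and a low DMSO or high 18DS library favours such a call. The counts among the 38 are therefore partly set by how they were chosen, and no share over all tested genes is given. The part of these libraries in the calls beyond the values without them given above was not tested.

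The GC content of the last 300 transcript bases, from GENCODE v29 transcripts, moved with these values. Over the 83 genes its r was 0.591 and rho 0.565 with 18DS against DMSO, 0.521 and 0.486 with BKM120 against DMSO, and 0.062 and -0.043 with JQ1 against DMSO. Over 12705 tested genes the r with 18DS against DMSO was 0.157. Of the 28 genes with the lowest GC (31% to 42.3%) 4 rose with 18DS (median 0.07), of the 28 in the middle 12 rose (median 0.15), and of the 27 with the highest GC (48.5% to 64.7%) 22 rose (median 0.27). The 12705 tested genes were cut into low, middle and high GC, with the outer groups open-ended (5680, 2512 and 4513 genes). Of these 5.56%, 8.6% and 15.7% rose. With a GC offset for each library, added after the data were seen, 35 of the 83 genes rose with 18DS and 15 were higher than with JQ1, and 30 and 12 of these had been called without it. Over all 13180 tested genes 1274 and 232 were higher with this offset.

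**Figure D5:**
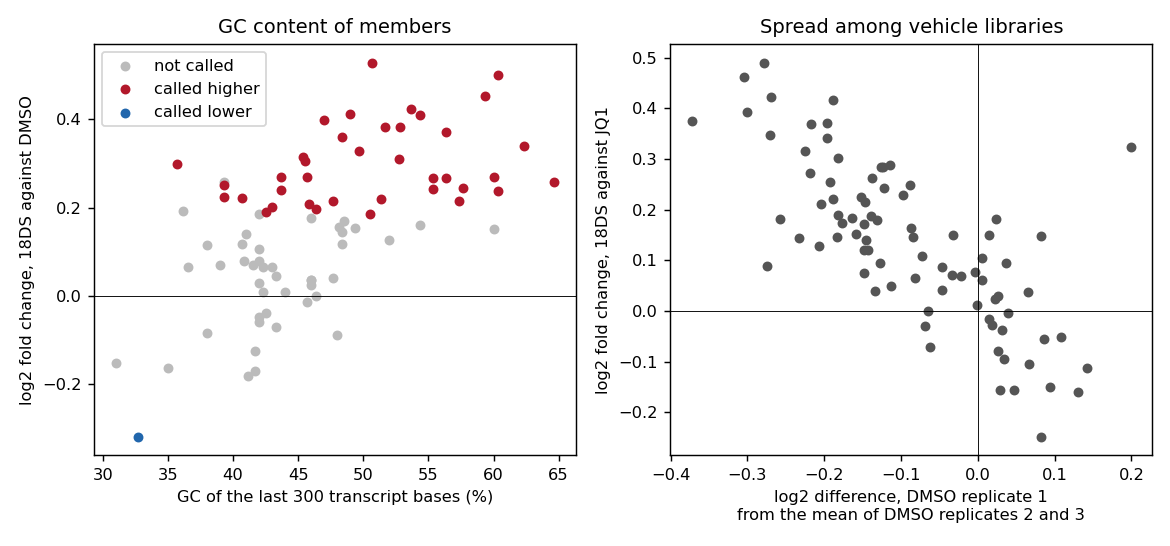
Left, GC of the last 300 transcript bases (%) and log2 fold change of 18DS against DMSO for 83 genes, red where higher and blue where lower at an adjusted p of 0.05. Right, log2 difference of DMSO replicate 1 from DMSO replicates 2 and 3 and of 18DS from JQ1, with r of 0.591 on the left and -0.739 on the right.

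Reads of these genes can be shared with pseudogenes, and how multi-mapped reads were treated is not given in the sources used here. Identifiers named as pseudogenes of these genes numbered 1593 and held 5677651 counts. Of the 25 genes whose pseudogenes held under 1% as many counts as the gene, 17 rose with 18DS (median 0.24), of the 10 with 1% to 10%, 5 rose (median 0.14), and of the 42 with at least 10%, 15 rose (median 0.11). With BKM120 the numbers were 7, 1 and 5. In each of the 12 libraries RPSA and RPS26 were within 5% of a further identifier, and so was RPL17 (RPL17-C18orf32), so the levels of these genes are uncertain.

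The wider translation machinery was read from lists written with earlier results of these data known. Of 22 translation factors and other TOP genes 4 rose with 18DS and 0 fell (all tested genes 9.95% and 11.0%). Among them were PABPC1, the poly(A) binding protein (0.38, SE 0.09), RACK1, a scaffold on the small subunit (0.30, SE 0.08), and FAU, a ribosomal protein made as a fusion to a ubiquitin-like protein (0.21). PABPC1 (0.35) and RACK1 (0.27) rose with BKM120, 0 changed with JQ1, and RACK1 was higher with 18DS than with JQ1 (0.31). Of all tested genes 4.07% rose with BKM120, 6.08% changed with JQ1 and 2.37% were higher with 18DS than with JQ1.

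Of 13 tested chaperones and importers of ribosomal proteins 5 fell and 1 rose with 18DS, 4 fell with JQ1 and 2 fell with BKM120 (lower among all tested genes 11.0%, 3.45% and 4.14%). GRWD1, the chaperone of RPL3, fell by 0.55 with 18DS and by 0.53 with JQ1, and LTV1, a small subunit assembly factor, by 0.64 and 0.48. Of 9 genes of the 5S particle and MDM2 list 6 fell with 18DS, 5 with JQ1 and 4 with BKM120, and 0 rose, against the same shares. RRS1, which brings the 5S particle to the large subunit, fell by 1.47 with 18DS, 1.07 with JQ1 and 0.65 with BKM120 (SE 0.11 each), while RPL5 and RPL11, which it assembles, did not pass.

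Of 25 tested mTORC1, S6 kinase and LARP1 genes 6 rose and 3 fell with 18DS, 3 rose with JQ1, and 3 rose and 2 fell with BKM120. Among all tested genes 9.95% rose and 11.0% fell with 18DS, 2.63% rose with JQ1, and 4.07% rose and 4.14% fell with BKM120. SESN2, an inhibitor of mTORC1, rose by 1.85 with 18DS and 1.48 with JQ1, and EIF4E, the cap-binding protein, fell by 0.41 with 18DS. Of 76 tested mitochondrial ribosomal protein genes 2 rose and 10 fell with 18DS (median -0.10), 0 and 2 with JQ1 and 1 and 5 with BKM120. The numbers lower were near the shares of all tested genes with 18DS (11.0%) and JQ1 (3.45%), and 4.14% fell with BKM120. MRPS30 fell by 0.85 with 18DS (SE 0.13).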

How the data were processed

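The authors deposited a table of raw counts for Ensembl genes, not normalized. The submitters' processing notes name HISAT2 2.1.0, featureCounts (Subread), cutadapt 1.7, SAMtools 1.9, limma, FastQC 0.11.5 and bcl2fastq 2.17.1.14, and the build hg19. The annotation release and strand were not given in the sources used here. Symbols came from a table of gene names, which matched 51662 identifiers and left 5.54% of counts unnamed. GC content came from GENCODE v29, for 12705 tested genes and 83 of the 83 members, by identifier.

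The tests used edgeR 4.0.16, with DESeq2 1.42.0 and limma 3.58.1 as alternatives, under R 4.3.3. Plots used matplotlib 3.10.9 and pandas 2.3.3 under Python 3.11.15. Genes were kept by filterByExpr (minimum count 10, minimum total count 15), which left 13180, and scaled by TMM (factors 0.971 to 1.033). All 12 libraries entered 1 robust quasi-likelihood fit, whose common biological coefficient of variation was 0.0862. P-values were adjusted by Benjamini-Hochberg over all tested genes, and calls were made under 0.05. CPM used TMM-scaled library sizes. The fit was also run on simulated counts. The changes planted there were larger than those of the ribosomal protein genes called here, and no library was shifted. That run therefore does not bear on these calls.

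The members and lists were chosen with earlier results of these data known. Named members are RPS9 and RPL10, up to 6 called genes per direction and comparison with the largest changes, at least 5 CPM and libraries that do not overlap, the paralogues and their partners, genes chosen by role, and the highest and lowest in DMSO. Up to 4 called genes per list could be named. RPS2, RPS12, RPS14 and RPS23, and the genes named as called in both of 2 comparisons, were named after their values were seen. Some genes that the rule names are not reported here. Epithelial and fibroblast markers summed to 0.323 to 1.32 CPM, with COL3A1 at 0. Alternatives covered scaling, filters, tests, pseudogenes, a block on the replicate number and leaving out single libraries.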

Additional observations from a re-analysis of the deposited data

How the results depend on the processing

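Of the values for named genes under the alternatives, 3440 stayed on the same side of the threshold, 83 lost a call and 41 gained one. The sign changed in 101 values, all of genes that did not pass with or without the alternative (lowest adjusted p among them 0.37) and whose reported log2 fold change was within 0.10 of 0. Examples are RPL11, RPL7 and RPL22 with library totals and RPS6 with upper-quartile factors. For 18DS against DMSO, library totals as the only scaling gave 21 higher, 3 lower and a median of 0.105, upper-quartile factors a median of 0.229, and a GC offset 0 lower. Over all tested genes library totals gave 898 higher and 2025 lower, and the GC offset 1352 lower. Leaving out both DMSO replicate 1 and 18DS replicate 2 gave 15 higher, 0 lower and a median of 0.116, and 8 higher for BKM120 against DMSO. Over all tested genes that fit gave 686 higher and 894 lower for 18DS, and 383 higher for BKM120. For JQ1 against DMSO, a fit of only those groups gave 1 higher (474 over all 12477 genes tested in that fit). For BKM120 against DMSO, library totals gave 8 higher and 4 lower (439 and 815 over all tested genes). The number lower was 5 with no filter or with genes summed with their pseudogenes (682 and 566 over all tested genes). It was 3 without the robust option, with only those groups, with DESeq2's Wald test or with limma-voom. Over all tested genes 585, 639, 491 and 567 were lower in these fits, in that order. For 18DS against JQ1, library totals gave 13 higher (208 over all tested genes).

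With each library left out in turn, the number higher ranged from 28 to 40 (18DS), 0 to 0 (JQ1), 4 to 18 (BKM120) and 7 to 29 (18DS against JQ1), and the number lower from 0 to 1, 0 to 0, 0 to 8 and 0 to 0. Over all tested genes the number higher ranged from 927 to 1509, 224 to 430, 223 to 731 and 67 to 584 in the same fits. The number lower ranged from 982 to 1517, 276 to 591, 264 to 834 and 33 to 443. Library totals moved the median of all tested genes by under 0.1, to -0.076 for 18DS. The causes were not tested. With a replicate block, 37 rose and 1 fell with 18DS, 0 and 0 with JQ1, 14 and 1 with BKM120, and 18 and 0 for 18DS against JQ1. Over all tested genes these numbers were 1261 and 1406, 329 and 414, 531 and 512, and 310 and 212, in that order. Replicate numbers did not pair the libraries: same-number correlations were -0.14 to 0.1, and 3 of 12 libraries correlated best with their own number. The median standard error was 0.096 for the 6 tested paralogues and 0.069 for the 77 other genes.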

Other observations

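For 52 ribosomal protein genes whose named pseudogenes held at least 1000 counts, the summed pseudogene counts had a median log2 fold change of -0.01 with 18DS against DMSO, where the 52 genes themselves had 0.11. With BKM120 the medians were -0.15 and 0.02, and with JQ1 0.02 and 0.03. Among genes whose RefSeq start was in the table, the pyrimidine run was held by 24 of 31 that rose with 18DS and by 23 of 35 that did not pass the test.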
